A study of Mus musculus with 67 samples.

Results

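Chromatin accessibility was examined at the loci of Shh and of 4 genes associated with the floor plate, Spon1, Lmx1a, Lmx1b and Ferd3l, in mouse neural progenitors (NPs) made from embryonic stem (ES) cells. The elements were all consensus ATAC-seq elements, that is, stretches of open chromatin found by a peak caller, that the deposited annotation assigned to one of these 5 genes and that had values. They were 84 of 111638 elements: 32 assigned to Lmx1a, 22 to Spon1, 13 to Shh, 11 to Lmx1b and 6 to Ferd3l. The assignment goes to the gene with the nearest transcription start site (TSS) and does not show that an element acts on that gene.

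Sonic hedgehog (Shh) is the secreted signal that patterns the ventral neural tube. It comes first from the notochord and then from the floor plate, the strip of glia-like cells at the ventral midline, and it binds Patched receptors, frees Smoothened and so changes the activity of the GLI transcription factors. In the spinal cord NKX2.2-expressing p3 progenitors lie next to the floor plate, OLIG2-expressing pMN progenitors, which give rise to motor neurons, lie dorsal to them, and p2 and p0-1 progenitors lie more dorsally still. Spon1 encodes F-spondin, a floor plate extracellular matrix protein that guides axons. Lmx1a and Lmx1b are LIM-homeodomain transcription factors, known in the roof plate and in the midbrain floor plate that forms dopaminergic neurons, and Lmx1b also in serotonergic neurons. Ferd3l is a basic helix-loop-helix transcription factor expressed in the floor plate, also known as Nato3.

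The study asked how NPs that respond to different levels of Shh signaling differ in their regulatory elements. Cells of HM1, a mouse ES cell line, were differentiated in culture, with 100 nM retinoic acid and 0, 10, 100 or 500 nM of the Smoothened agonist SAG from day 3, and were fixed, transposed, stained inside the cell for transcription factors and sorted (CaTS-ATAC). Neuromesodermal progenitors (NMPs) were taken at day 3 before SAG, p0-1 from 0 and 10 nM, p2 from 10 and 100 nM, and pMN and p3 from 100 and 500 nM at days 4, 5 and 6. The 67 samples made 25 conditions, 17 with 3 replicates and 8 with 2. The groups compared here were NMP (3 samples), pMN at days 4, 5 and 6 (6, 5 and 4 samples), p3 at the same days (5, 5 and 4), and p2 and p0-1 at day 6 (6 and 5). Every NP sample was exposed to retinoic acid, all came from 1 cell line in vitro, and each is a bulk of sorted cells, so that fewer cells with an open element and a less open element in every cell cannot be told apart. The sort itself used NKX2.2 and OLIG2, and no sample was sorted as floor plate.

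The reads in elements numbered 9298160 in the shallowest sample, 29985325 in the deepest and 20254011 at the median, and the values given here are reads divided by the authors' size factor of the sample, called normalized counts. An element was called different between groups when its limma p value, adjusted over all 111638 elements, was under 0.01 and the mean normalized counts differed more than 4-fold. The labels of the sorted cells were checked against elements nearest the TSS of marker genes. The summed count of the Olig1 and Olig2 elements at day 6 was 1480 to 1783 in p3 and 3382 to 3468 in pMN, whereas that of the 2 of 3 p3 markers with such an element, Nkx2-9 and Sim1, overlapped (2245 to 2802 and 2393 to 2819). The floor plate markers Foxa1, Foxa2, Ntn1, Sulf1 and Corin summed to 4079 to 5546 in p3 and 2584 to 2778 in pMN at day 6. NMPs at day 3 were at 4125 to 4865, within the p3 range, so a high sum does not mark p3 or floor plate alone. Foxa2 is a forkhead factor that drives floor plate identity and that the study also found expressed in p3. Its element was at 1662 ± 486 in p3 and 277 ± 55.4 in pMN at day 6 (SD, n = 4 each), but that of Corin at 72.6 ± 14 and 63.9 ± 8.08. The roof plate (2221 to 2948 and 2363 to 2444) and notochord lists (1896 to 2281 and 1930 to 2336) overlapped, and the endoderm list was at 2348 to 2416 in p3 and 2019 to 2209 in pMN. The part of these cell types in the results below was not tested.

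The sequences at the center of 8 elements on which the results turn are given first, 300 bases each on the + strand of GRCm38 (mm10), read from the RefSeq genome. They were chosen as the members with the widest differences between p3 and pMN at each gene, the Lmx1a element with the most negative p3 to pMN log2 ratio, and the graded element of Spon1. Capitals mark a match to 1 of 4 motifs searched on both strands, forkhead TGTTTAC, the GLI core GGGTGGT, the NKX2 core TNAAGTG and the SOX core CATTGT, none of which contains another.
Shh, 9551 bp upstream, chr5:28476503-28476802: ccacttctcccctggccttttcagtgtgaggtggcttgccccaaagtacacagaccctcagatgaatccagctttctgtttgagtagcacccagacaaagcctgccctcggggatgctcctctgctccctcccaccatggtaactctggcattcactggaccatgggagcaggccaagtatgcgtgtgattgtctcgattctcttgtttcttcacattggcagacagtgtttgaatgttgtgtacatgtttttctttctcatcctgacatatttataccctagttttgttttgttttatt
Shh, 96519 bp upstream, chr5:28563471-28563770: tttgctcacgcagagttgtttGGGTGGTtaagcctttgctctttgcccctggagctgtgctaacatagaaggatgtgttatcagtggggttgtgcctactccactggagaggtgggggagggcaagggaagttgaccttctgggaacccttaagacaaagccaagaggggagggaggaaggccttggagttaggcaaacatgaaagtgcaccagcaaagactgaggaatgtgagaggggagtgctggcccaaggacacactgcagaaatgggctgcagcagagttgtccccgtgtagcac
Spon1, 86019 bp upstream, chr7:113679830-113680129: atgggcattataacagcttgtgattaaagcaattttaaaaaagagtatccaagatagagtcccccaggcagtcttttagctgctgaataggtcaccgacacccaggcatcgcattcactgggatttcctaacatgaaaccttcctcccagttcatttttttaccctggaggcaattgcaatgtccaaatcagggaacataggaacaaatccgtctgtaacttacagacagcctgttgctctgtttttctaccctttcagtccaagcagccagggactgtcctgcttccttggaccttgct
Spon1, 77593 bp upstream, chr7:113688256-113688555: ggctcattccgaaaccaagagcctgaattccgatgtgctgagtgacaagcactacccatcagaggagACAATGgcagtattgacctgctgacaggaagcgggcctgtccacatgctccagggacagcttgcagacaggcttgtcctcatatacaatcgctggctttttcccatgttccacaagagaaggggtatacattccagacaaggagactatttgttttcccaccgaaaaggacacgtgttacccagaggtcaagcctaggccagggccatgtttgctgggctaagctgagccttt
Ferd3l, 243 bp upstream, chr12:33928033-33928332: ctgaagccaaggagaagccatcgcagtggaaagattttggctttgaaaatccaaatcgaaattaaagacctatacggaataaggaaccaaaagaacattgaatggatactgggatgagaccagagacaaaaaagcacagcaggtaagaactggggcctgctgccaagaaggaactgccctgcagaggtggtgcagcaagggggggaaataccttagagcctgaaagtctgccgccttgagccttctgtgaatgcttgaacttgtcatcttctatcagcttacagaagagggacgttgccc
Lmx1b, 58824 bp downstream, chr2:33582125-33582424: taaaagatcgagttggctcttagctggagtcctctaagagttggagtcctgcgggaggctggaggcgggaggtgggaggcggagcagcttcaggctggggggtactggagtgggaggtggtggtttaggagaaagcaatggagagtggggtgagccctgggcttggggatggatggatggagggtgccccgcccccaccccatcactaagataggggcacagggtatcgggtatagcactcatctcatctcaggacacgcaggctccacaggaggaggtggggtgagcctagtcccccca
Lmx1a, 258172 bp downstream, chr1:167947581-167947880: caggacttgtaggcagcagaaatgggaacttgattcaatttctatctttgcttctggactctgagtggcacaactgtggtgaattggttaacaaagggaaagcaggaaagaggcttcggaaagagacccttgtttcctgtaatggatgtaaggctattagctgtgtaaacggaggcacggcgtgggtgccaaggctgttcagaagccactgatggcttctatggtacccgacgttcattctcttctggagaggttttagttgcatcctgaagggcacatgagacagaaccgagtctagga
Lmx1a, 165615 bp downstream, chr1:167855024-167855323: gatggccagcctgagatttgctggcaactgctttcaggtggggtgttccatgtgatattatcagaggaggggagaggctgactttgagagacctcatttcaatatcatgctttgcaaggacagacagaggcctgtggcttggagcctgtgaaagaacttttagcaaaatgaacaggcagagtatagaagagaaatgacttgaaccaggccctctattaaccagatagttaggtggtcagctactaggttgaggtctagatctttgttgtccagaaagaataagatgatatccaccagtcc

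The Shh element 96519 bp upstream held a GLI core at bases 22 to 28, and the Spon1 element 77593 bp upstream a SOX core on the opposite strand at bases 68 to 73. The other 6 windows held no match to these letters. In windows of this length the forkhead letters stood in 3 of 84 members and 4.96% of all elements, the GLI core in 8 of 84 and 4.27%, the NKX2 core in 12 of 84 and 15.0%, and the SOX core in 13 of 84 and 21.1%. Of the 14 members that were more accessible in p3 than in pMN at day 6, 0 held the forkhead letters and 1 each held the GLI, NKX2 and SOX letters. These are matches of letters and not binding sites, and a window without a match says nothing of a factor.

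The elements were spread over wide and mostly noncoding stretches. Of the 84, 44 were intergenic, 37 were in introns, 1 was in an exon and 2 were at promoters, and their centers lay 81 to 367527 bp from the TSS of their gene. All 13 Shh elements were upstream of the gene, 2800 to 341249 bp away, 8 of them within introns of the noncoding RNA gene 9530036O11Rik. The 11 Lmx1b elements were all downstream of the TSS, 10 of them in introns of Lmx1b, and the 6 Ferd3l elements were all upstream. In level the members resembled the genome, with a median over elements of the mean normalized count of 40.7, against 41.4 for all elements, and 22 of 84 (26.2%) had a mean above 100, against 28.4%.

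p3 and pMN, which lie side by side in the neural tube and were sorted from the same SAG concentrations, parted at these loci between day 4 and day 6. At day 4, 1 of 84 members was called, beside 2.65% of all elements, and it was higher in p3, as were 0.64% of all elements, where 2.01% were lower. The shallowest samples of all, at 9298160 and 9577692 reads in elements, were p3 samples of day 4 from 100 nM SAG. At day 5, 10 members were called (10.4% of all elements), 7 higher (4.21%) and 3 lower (6.24%). At day 6, 18 were called (14.7%). Most of the members called at day 6 were more accessible in p3: 14 were higher, where 7.35% of all elements were, and 4 were lower, where 7.33% were. The median log2 ratio of p3 to pMN over the 84 members was 0.05 at day 4, 0.43 at day 5 and 0.77 at day 6, beside 0.01, 0.04 and -0.01 over all elements. At day 6 the medians by gene were 1.90 for Shh, 1.04 for Lmx1b, 1.02 for Ferd3l, 0.33 for Spon1 and 0.15 for Lmx1a. The called members at day 6 were 5 higher and 1 lower at Shh, 4 higher at Spon1, 2 higher at Ferd3l, 1 higher at Lmx1b, and 2 higher and 3 lower at Lmx1a.

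**Figure D1:**
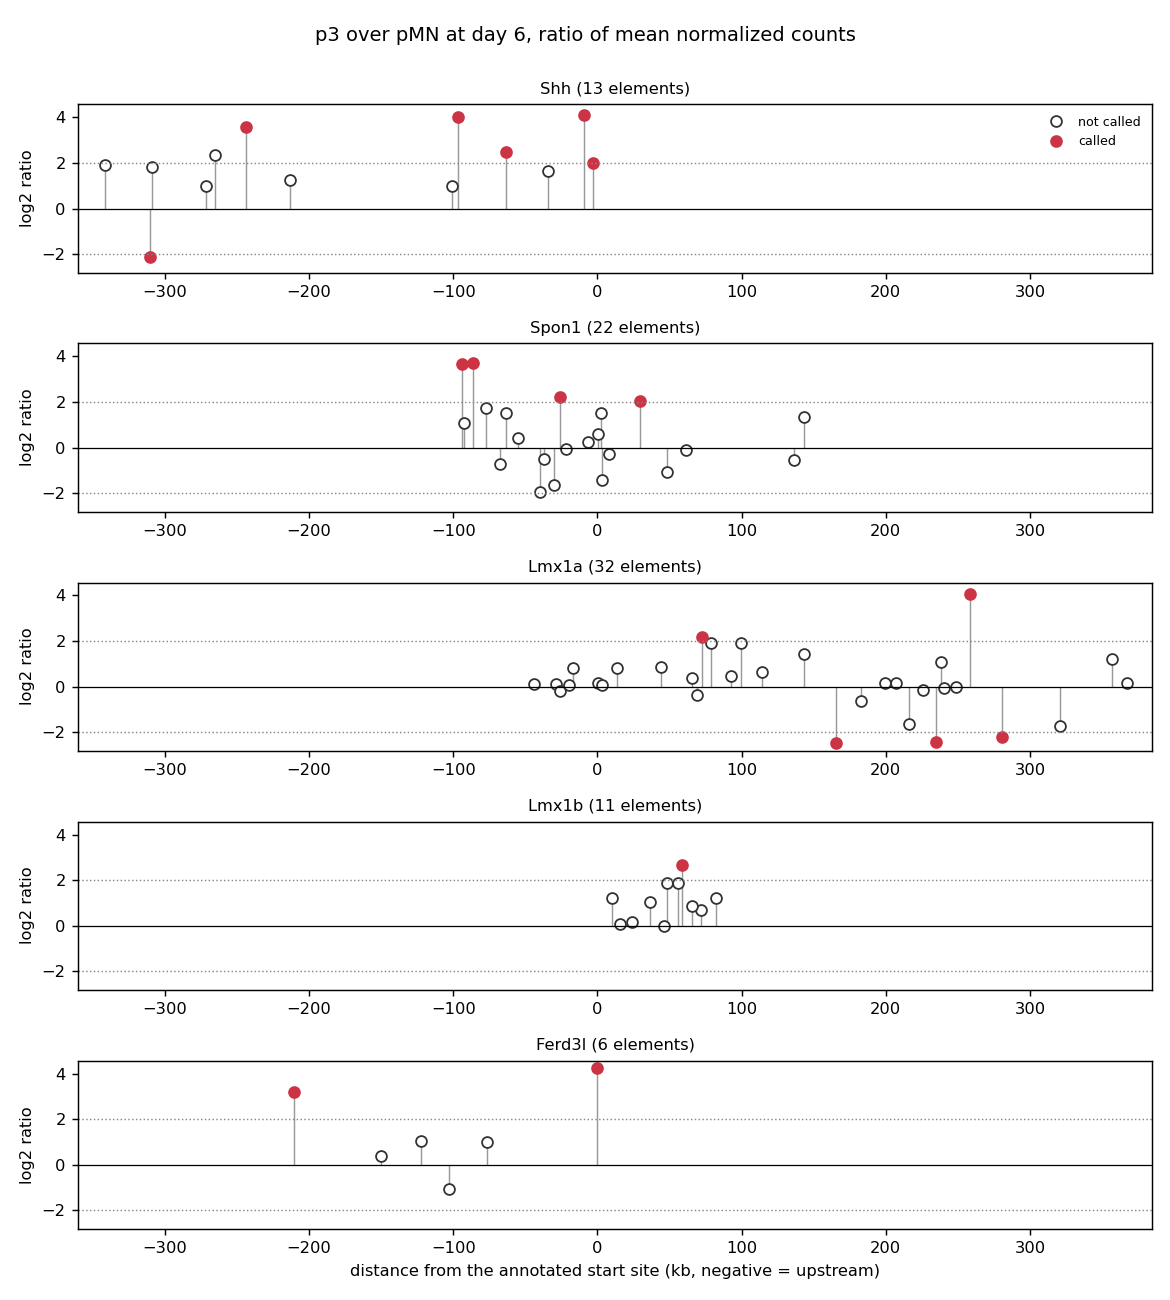
Log2 ratio of the mean normalized count in p3 to that in pMN at day 6 (vertical axis) for the 84 elements against their distance from the TSS in kb (horizontal axis), one panel per gene, with dotted lines at a 4-fold difference. The Shh elements had a median of 1.90 and the Lmx1a elements one of 0.15, and elements above the upper line stood next to elements near 0.

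At the Shh locus the element 9551 bp upstream (chr5:28476172-28477133, in intron 1 of 9530036O11Rik) went from closed in NMPs to widely open in p3. Its normalized count was 2.42, 5.40 and 11.8 in the 3 NMP samples. At day 6 it was 148 and 862 in p3 from 100 nM SAG and 203 and 1229 from 500 nM, against 6.28, 56.3, 10.0 and 70.1 in pMN, so that every p3 sample was above every pMN sample although the p3 samples themselves differed widely. The means were 611 ± 525 and 35.7 ± 32.3 (SD, n = 4 each), a log2 ratio of 4.10, and the difference in variance-stabilized (VST) value, a log2 scale on which low counts are compressed, was 3.55 with a standard error of 0.69 (limma, adjusted p = 0.00123). At day 5 the 5 p3 samples were at 218, 91.7, 255, 80.8 and 387 and the 5 pMN samples at 10.1 to 46.9, without overlap (log2 ratio 2.78, limma adjusted p = 6.67e-05). At day 4 p3 (24.6 to 97.3) and pMN (lowest 20.7, median 48.2, highest 50.5) overlapped, with limma adjusted p = 0.17. With the 100 nM samples alone the day 6 difference had a limma adjusted p of 0.0146, so that the call was lost at a ratio of 16.1. In p2 at day 6 the element was at 6.79 to 178 (median 36.6), and the highest p2 sample was above the lowest p3 sample. In p0-1 it was at 1.16 to 18.4, below every p3 sample.

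The Shh element 96519 bp upstream (chr5:28563312-28563929), in the same intron, was the only member called at day 4. p3 samples were then at 96.9, 36.0, 120, 98.2 and 160 and pMN samples at 11.8 to 28.1 (median 18.3), with no overlap and a log2 ratio of 2.38 (limma, adjusted p = 3.34e-05, and 0.0114 with the 100 nM samples alone). The gap widened with time. At day 6 p3 was at 571, 921, 558 and 1136 and pMN at 17.9, 58.2, 15.0 and 103, means of 796 ± 282 and 48.5 ± 41.2, with a log2 ratio of 4.04 and a VST difference of 3.94, SE 0.43 (limma, adjusted p = 2.2e-05). In p0-1 at day 6 it was at 7.61 to 40.6 and in p2 at 17.9 to 273 (median 70.9), all below the lowest p3 sample.

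The other 4 Shh elements called at day 6 showed smaller or less certain differences. Nearest the TSS among the elements assigned to Shh, the one 2800 bp upstream was at 193, 347, 204 and 377 in p3. In pMN it was at 43.0, 91.1, 56.1 and 86.4, without overlap (log2 ratio 2.02, limma adjusted p = 0.000161). Its ratio stood at the threshold, and leaving out either p3 sample numbered 3 or either pMN sample numbered 2 gave 3.59 to 3.81-fold, below 4. The element 63547 bp upstream was at 49.5, 200, 62.4 and 265 in p3 and 16.0 to 39.7 in pMN (log2 ratio 2.50, limma adjusted p = 0.00496). It lost its call without the 100 nM p3 sample numbered 3 and without any 1 of 3 pMN samples, both from 100 nM and the 500 nM one numbered 2 (limma adjusted p = 0.0113 to 0.0183). The element 243610 bp upstream was at 24.7 to 83.5 in p3 and at 0, 4.69, 0 and 10.5 in pMN (log2 ratio 3.59, limma adjusted p = 0.000834), the 2 pMN samples at 0 being those numbered 2. It was already open in NMPs, at 49.7, 51.3 and 174, as was the element 2800 bp upstream, at 257 to 290.

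One Shh element went the other way and one was shared. The element 310510 bp upstream (chr5:28777142-28778081, intergenic) was at 39.6, 19.3, 33.5 and 33.0 in p3 and 134, 127, 117 and 169 in pMN at day 6, with no overlap, and was called lower in p3 at day 5 and day 6 (log2 ratios -2.28 and -2.13, limma adjusted p = 1.02e-07 and 2.1e-05). Without the 100 nM p3 sample numbered 3 the day 6 ratio was 0.258 and the call was lost. Within 2 kb of it on the annotation, the element 308662 bp upstream had its highest condition mean, 70.5, in p3 at day 6 from 500 nM SAG, where the former had its highest, 143, in pMN. The element 308662 bp upstream was not called between p3 and pMN at day 6, at means of 69.9 ± 35.7 and 19.7 ± 8.59 (SD, n = 4 each). The element 101170 bp upstream, the Shh element with the highest count, was open in all NP types at day 6. It was at 1314, 1714, 1242 and 1680 in p3, 508 to 936 in pMN, 334 to 950 in p2 and 465 to 1227 in p0-1, so that p3 was above all of them and the p3 to pMN ratio, 0.98 on the log2 scale, passed the adjusted p threshold but not 4-fold (limma, adjusted p = 0.000881).

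**Figure D2:**
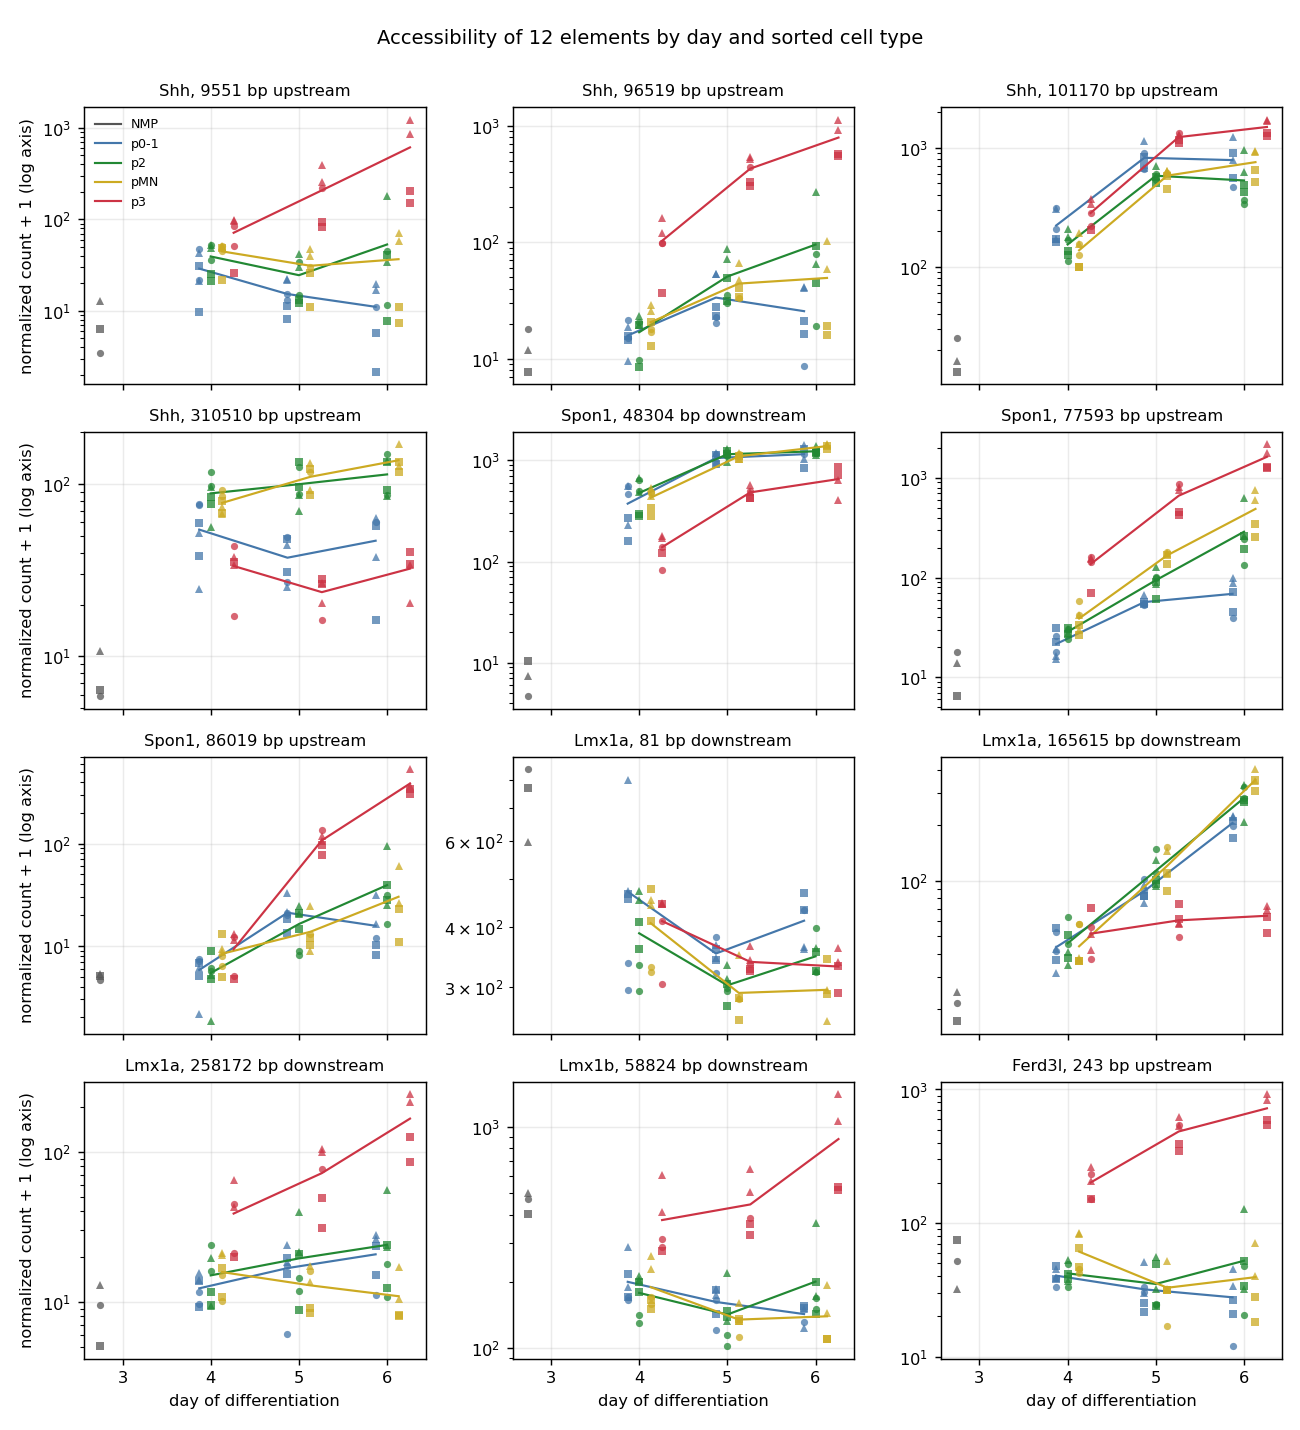
Normalized count plus 1 (log axis) of 12 elements by day of differentiation, colored by cell type, with lines through the means and each symbol 1 sample (circles, squares and triangles for replicates 1, 2 and 3). The Shh element 9551 bp upstream rose in p3 from 24.6 to 97.3 at day 4 to 148 to 1229 at day 6, with the 2 samples numbered 3 highest, while pMN stayed at or below 70.1.

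At Spon1, the F-spondin gene, 4 elements were higher in p3 at day 6, 3 of them upstream of the gene. The element 86019 bp upstream (chr7:113679264-113680695, intergenic) was closed at day 4 in both types, at 3.79 to 12 in p3 and 3.93 to 12.2 in pMN. By day 5 p3 stood at 135, 96.8, 105, 76.9 and 118 and pMN at 7.99 to 23.4, and by day 6 p3 was at 340, 366, 304 and 529 and pMN at 9.86, 25.4, 22.0 and 59.6. The types did not overlap on either day, and at day 6 the log2 ratio was 3.72 and the VST difference 3.39, SE 0.32 (limma, adjusted p = 8.91e-06). The element 94076 bp upstream was weak everywhere, with 0 reads in the 3 NMP samples, 34.6, 38.7, 24.3 and 93.2 in p3 at day 6 and 2.69 to 4.67 in pMN (log2 ratio 3.66, limma adjusted p = 0.000133). The element 25820 bp upstream was at 62.7 to 175 in p3 and 15.0 to 30.4 in pMN (log2 ratio 2.24, limma adjusted p = 0.000377), and without the 500 nM p3 sample numbered 3 its ratio was 3.67. In intron 2 of Spon1, the element 29426 bp downstream was at 16.2 to 53.4 and 4.48 to 15.0 (log2 ratio 2.04, limma adjusted p = 0.00482), and it lost its call when any 1 of 5 samples was left out (limma adjusted p = 0.0111 to 0.0183).

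Other Spon1 elements followed a different order of cell types. The element 77593 bp upstream (chr7:113687886-113688925) was graded from dorsal to ventral at day 6, at 38.0 to 97.8 in p0-1, 134 to 633 (median 252) in p2, 256, 596, 346 and 752 in pMN, and 1252, 1798, 1300 and 2165 in p3. Neighbours in that order overlapped between p2 and pMN and did not overlap between p0-1 and p2 or between pMN and p3. It was called between pMN and p0-1 (log2 ratio 2.85, limma adjusted p = 0.000136) and between p3 and p2 (2.50, 1.63e-05), while p3 over pMN, 1.74, passed the adjusted p threshold only (0.000373). In intron 2 the element 48304 bp downstream, the Spon1 element with the highest count, was lower in p3, at 852, 635, 722 and 404 against 1304 to 1436 in pMN (log2 ratio -1.08, limma adjusted p = 0.000314, below 4-fold). The element in exon 1, 523 bp from the TSS (chr7:113765681-113767362), varied little, with 615 to 850 in p3 and 430 to 549 in pMN at day 6 and 521 to 737 in NMPs.

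Ferd3l had its TSS itself within an element that distinguished p3. The promoter element, whose center lay 243 bp upstream (chr12:33926966-33929399), was at 50.9, 74.2 and 31.2 in NMPs and at 151, 150, 205, 234 and 260 in p3 at day 4, against 41.3 to 83.5 (median 55.1) in pMN. The types were already apart at day 4, by 1.73 on the log2 scale, below 4-fold (limma, adjusted p = 7.86e-06). At day 6 p3 was at 585, 836, 545 and 921 and pMN at 17.0, 39.4, 27.1 and 70.1, means of 722 ± 185 and 38.4 ± 23.0, with a log2 ratio of 4.23 and a VST difference of 3.94, SE 0.30 (limma, adjusted p = 2.4e-06), the widest called log2 ratio of the 84 members in this comparison. In p2 it was at 19.6 to 126 (median 39.7) and in p0-1 at 11 to 44.6. Far from it, the intergenic element 210713 bp upstream (chr12:33716952-33718472) did not separate the types at day 4 (56.9 to 118 in p3, 45.1 to 98.8 in pMN). At day 6 it was at 284, 377, 219 and 488 in p3 and 15.0 to 68.9 in pMN, with a log2 ratio of 3.19 (limma, adjusted p = 3.43e-05).

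At Lmx1b 1 of 11 elements was called at day 6, though 9 of the 11 had their highest mean in p3 at that day. The called element, in intron 2, 58824 bp downstream (chr2:33580294-33584255), was open in all samples. It was at 533, 1065, 516 and 1400 in p3 and 109, 192, 109 and 144 in pMN, with no overlap, and the means of 879 ± 431 and 138 ± 38.9 gave a log2 ratio of 2.67 and a VST difference of 2.46, SE 0.30 (limma, adjusted p = 5.26e-05). In NMPs it was at 469, 405 and 499. Of the 11 elements assigned to Lmx1b, the one nearest the TSS also lay in intron 2, 10428 bp downstream. At day 6 it was at 504 to 834 in p3 and 241 to 330 in pMN (log2 ratio 1.22, limma adjusted p = 0.000192, below 4-fold). It was highest in NMPs, at 811 to 942.

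Lmx1a, with the most elements, had the median ratio nearest 0 of the 5 genes at day 6. Its promoter element (chr1:167688061-167691217) was at 291 to 361 in p3 and 255 to 342 in pMN at day 6, overlapping (log2 ratio 0.16, limma adjusted p = 0.361). Far downstream of the gene, where 15 elements were intergenic, from 165615 to 367527 bp, elements of opposite pattern lay in the same stretch. The element 258172 bp downstream (chr1:167947165-167948296) was at 84.1, 213, 124 and 241 in p3 and 7.17, 16.0, 7.01 and 9.34 in pMN, a log2 ratio of 4.07 (limma, adjusted p = 1.05e-05). The element 165615 bp downstream (chr1:167854666-167855680) had the reverse, 51.1, 68.2, 62.4 and 71.9 in p3 and 352, 401, 305 and 348 in pMN, a log2 ratio of -2.47 and a VST difference of -2.27, SE 0.15 (limma, adjusted p = 1.37e-06). In both cases no sample of one type reached the range of the other.

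Of the remaining 3 called Lmx1a elements, 2 were of low count. The element 234992 bp downstream was at 0 to 3.46 in p3 and 7.51 to 21.5 in pMN (log2 ratio -2.44, limma adjusted p = 0.00626), a difference of few reads whose call was lost without any 1 of 4 samples (limma adjusted p = 0.0106 to 0.0214). The element 280348 bp downstream was at 0.971 to 15.0 and 20.0 to 37.4 (log2 ratio -2.21, limma adjusted p = 0.00141), and its ratio was 0.277 without the 500 nM p3 sample numbered 3. In intron 2 of Lmx1a, the element 72518 bp downstream was at 85.5 to 156 in p3 and 12.6 to 38.5 in pMN (log2 ratio 2.18, limma adjusted p = 0.000145), and its ratio was 3.88 without the 100 nM pMN sample numbered 2.

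**Figure D3:**
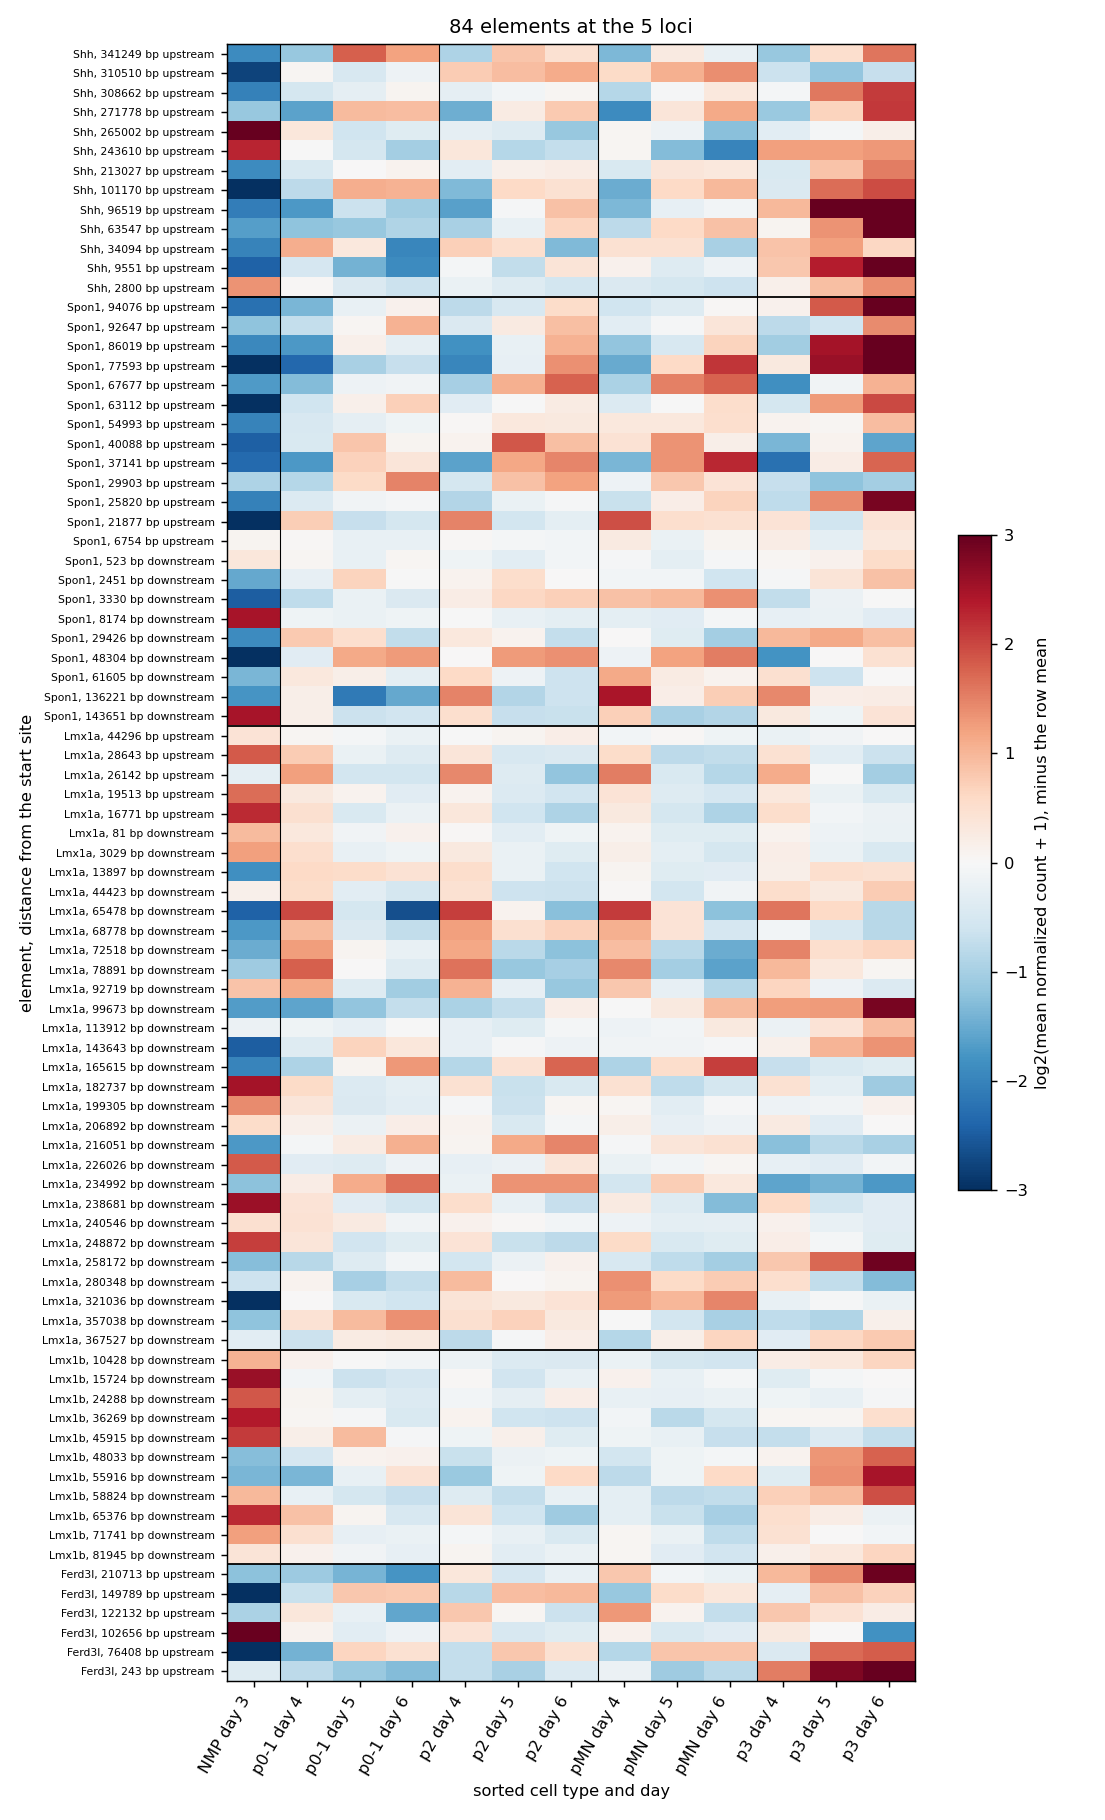
Heat map of the 84 elements (rows, grouped by gene) in the 13 combinations of cell type and day (columns), as log2 of the mean normalized count plus 1 less the mean of the row. p3 at day 6 was the highest of the 4 NP types at that day in 50 rows, among them 12 of the 13 Shh rows. Among all elements p3 was the highest in 31.5%.

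Set against all 3 other NP types at day 6, p3 was distinguished at a limited set of members. Compared with p2, 15 members were higher and 5 lower (15.8% of all elements were called, 7.01% higher and 8.76% lower), and compared with p0-1, 18 were higher and 3 lower (16.3%, with 9.04% higher and 7.27% lower). Between pMN and p0-1, 3 were higher and 1 lower in pMN (4.21%, with 3.13% higher and 1.08% lower). The members higher in pMN, named after their values were seen, were the Spon1 elements 77593 bp upstream and 136221 bp downstream and the Lmx1a element 321036 bp downstream, at 33.1 to 59.6 in pMN and 4.71 to 19.4 in p0-1, and the lower one was the Lmx1a element 357038 bp downstream, at 8.96 to 10.5 and 29.4 to 76.5. Without the samples numbered 2 the calls of the second Spon1 element and of the Lmx1a element 321036 bp downstream were lost (limma adjusted p = 0.0212 and 0.0131). Higher in p3 than in each of the 3 types were 11 members: the Shh elements 9551, 63547, 96519 and 243610 bp upstream, the Spon1 elements 25820, 86019 and 94076 bp upstream, both Ferd3l elements described above, the Lmx1b element in intron 2 and the Lmx1a element 258172 bp downstream. Lower than in each of the 3 was the Lmx1a element 234992 bp downstream, at 18.2 to 35.6 in p2 and 14.1 to 44.5 in p0-1. These comparisons share the p3 samples. At the Shh elements 9551 and 243610 bp upstream the ranges of the p3 and p2 samples overlapped. The share of all elements higher, or lower, in p3 than in each of the 3 types was not counted. These members are therefore not set against the genome. Of the 84 members 50 (59.5%) had their highest day 6 mean in p3, against 31.5% of all elements, and by gene these were 12 of 13 at Shh, 9 of 11 at Lmx1b, 4 of 6 at Ferd3l, 12 of 22 at Spon1 and 13 of 32 at Lmx1a.

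Some of these calls depended on the libraries used. Without the samples numbered 3 the Lmx1b element was 3.20-fold higher in p3 than in p2 and 3.61-fold higher than in p0-1, and the Shh element 63547 bp upstream 3.41-fold higher than in p2. The Shh element 243610 bp upstream, at 1.63 to 29.9 in p2, was not called against p2 without the samples numbered 1 or without those numbered 2 (limma adjusted p = 0.0185 and 0.0122).

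**Figure D4:**
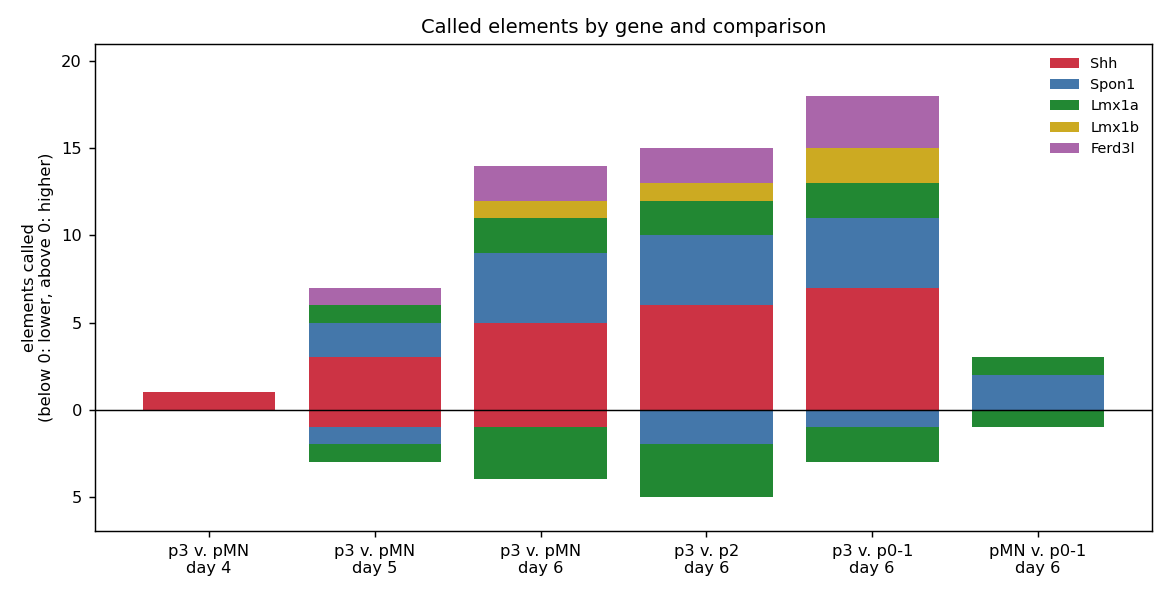
Number of elements called (vertical axis; higher above 0, lower below 0) in each of the 6 comparisons of cell types, stacked by gene. Between p3 and pMN the higher part went from 1 at day 4 to 7 at day 5 and 14 at day 6. The shares of all elements called higher on these days were 0.64%, 4.21% and 7.35%. Between pMN and p0-1 the higher part was 3 (3.13% of all elements).

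The loci changed most between NMPs and day 4, as the whole genome did. From NMP to p3, 25 members were higher and 11 lower (32% of all elements were called, 21.8% higher and 10.2% lower), and from NMP to pMN 26 were higher and 13 lower (35.7%, with 25.2% higher and 10.5% lower). The genes differed in direction: of the Spon1 elements 8 opened and 2 closed toward p3 and of the Shh elements 6 opened and 1 closed, whereas 0 Lmx1b elements opened and 4 closed. These 4 Lmx1b elements, all in intron 2 at 15724 to 45915 bp downstream, had their highest condition mean in NMPs, between 112 and 721. Some calls toward p3 were lost when the samples of 1 replicate number were left out. At Spon1 these were the elements 63112 and 54993 bp upstream and 3330 bp downstream, and at Shh the one 308662 bp upstream. At Lmx1b the element 24288 bp downstream had a ratio of 0.269 without the samples numbered 1. Calls were also lost at Lmx1a and Ferd3l. The Shh element 101170 bp upstream was among the first to open, from 24.2, 12.1 and 15.1 in NMPs to 201 to 367 in p3 and 97.4 to 192 (median 138) in pMN, log2 ratios of 4.03 and 2.99 (limma, adjusted p = 2.09e-09 and 3.59e-09).

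Between day 4 and day 6, 8 of 13 Shh elements and 9 of 22 Spon1 elements rose in p3, and the other Shh and Spon1 elements were not called. In p3 20 members rose and 2 fell (14.8% of all elements were called, 10% higher and 4.73% lower). In pMN 6 rose and 6 fell (14.5%, with 9.34% higher and 5.14% lower). The Spon1 element 86019 bp upstream rose by 5.54 on the log2 scale in p3 (limma, adjusted p = 1.2e-08) and the Shh element 96519 bp upstream by 2.96 (5.24e-06). In pMN the latter went from 11.8 to 28.1 at day 4 to 15.0 to 103 at day 6, overlapping (log2 ratio 1.31, limma adjusted p = 0.0618). The Shh element 9551 bp upstream rose by 3.12 (limma, adjusted p = 0.00118), but without the samples numbered 3 by 3.31-fold, under the threshold, and without those numbered 1 its adjusted p was 0.0101. The Ferd3l promoter element changed from 200 ± 49.2 (n = 5) to 722 ± 185 (n = 4) in p3, a log2 ratio of 1.85, below 4-fold (limma, adjusted p = 5.48e-06).

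The change of the p3 to pMN ratio over time was tested itself, as an interaction of cell type and day. It was called for 9 members, 8 toward p3 and 1 toward pMN (5.69% of all elements, 3.72% and 1.97% in the same directions). The log2 ratio of ratios between day 6 and day 4 was 3.55 for the Spon1 element 86019 bp upstream (limma, adjusted p = 1.85e-06) and 3.41 for the Shh element 9551 bp upstream (0.00259). The 2 Ferd3l elements had 3.02 at 210713 bp (2.1e-05) and 2.50 at the promoter (4.18e-05). The reverse change was that of the Lmx1a element 165615 bp downstream, at -2.70 (5.9e-07), which in pMN rose from 35.3 to 57.4 at day 4 to 305 to 401 at day 6 and in p3 went from 36.3 to 70.1 to 51.1 to 71.9. The Shh element 96519 bp upstream, apart from day 4 on, was not among the 9.

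The counts of members under other thresholds are given beside the same share of all elements. With a fold above 2, the members called between p3 and pMN were 14 at day 4 (12.9% of all elements), 32 at day 5 (29.7%) and 40 at day 6 (30.1%). They were 37 against p2 (31.4%), 35 against p0-1 (28.3%) and 12 between pMN and p0-1 (13.8%), and 36 over time in p3 (32.8%) and 37 in pMN (36.6%). From NMP they were 54 toward p3 (50.9%) and 57 toward pMN (58.5%). With the floor of a mean above 100 normalized counts and a fold above 4, which an element may pass through the group where it is high, the day 4 comparison of p3 and pMN had 0 calls among 17 members (1.31%), that of day 5 had 3 among 22 (5.77%) and that of day 6 had 8 among 28 (11.2%). The same floor gave 9 of 26 against p2 (11.9%), 10 of 25 against p0-1 (12.7%), 1 of 17 between pMN and p0-1 (2.98%), 8 of 19 from NMP to p3 (21.7%), 10 of 19 from NMP to pMN (24.5%), 9 of 28 over time in p3 (9.27%) and 4 of 19 in pMN (10%).

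SAG concentration within p3 made no difference that passed the test. Between 500 and 100 nM, 0 of 84 members were called by limma at day 4, 5 or 6 (0% of all elements each time), with 5, 1 and 0 at an unadjusted p under 0.05, from 2 against 3, 2 against 3 and 2 against 2 samples, and limma's voom on the recovered reads also called 0. The median log2 ratio of 500 to 100 nM over the members was 0.11, 0.08 and 0.07 at days 4, 5 and 6. Over all elements it was 0.04, 0.02 and 0.01. By gene the day 4 medians were 0.60 for Shh, 0.46 for Ferd3l, 0.19 for Spon1, 0.03 for Lmx1b and -0.08 for Lmx1a.

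The spread among the p3 samples at day 6 went with the replicate number. All 14 members called higher in p3 at day 6 had a higher p3 mean in the 2 samples numbered 3 than in the 2 numbered 2, and all 14 also had a higher pMN mean there. For the Shh element 9551 bp upstream the p3 means were 176 and 1045 for numbers 2 and 3, and the pMN means 8.15 and 63.2, so that the p3 to pMN ratio was 21.6 and 16.5-fold within each number. At the Shh element 96519 bp upstream the ratios were 34.2 and 12.8 and at the Ferd3l promoter element 25.6 and 16.0. Within both numbers the ratio had the same direction for 14 of 14 higher and 4 of 4 lower members, and exceeded 4-fold for 11 and 13 of the 14, with the Shh element 243610 bp upstream, at 0 in pMN numbered 2, counted among the 11, and for 2 and 3 of the 4. The members had been called on these same samples, so the shared direction follows largely from that choice and is not replication. The median element of the genome differed by 0.03 on the log2 scale between the p3 samples of the 2 numbers. The share of all elements, or of all those called higher in p3, with a higher mean in number 3 was not counted. The shift is thus not shown to be particular to these loci. The summed floor plate markers were at 4079 and 4214 in the p3 samples numbered 2 and at 5122 and 5546 in those numbered 3. In p2 from 100 nM at day 6 the sample numbered 3 also stood apart at the Shh element 9551 bp upstream, at 178 against 44.1 and 39.7. The part of the marker genes in the difference between the numbers was not tested.

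**Figure D5:**
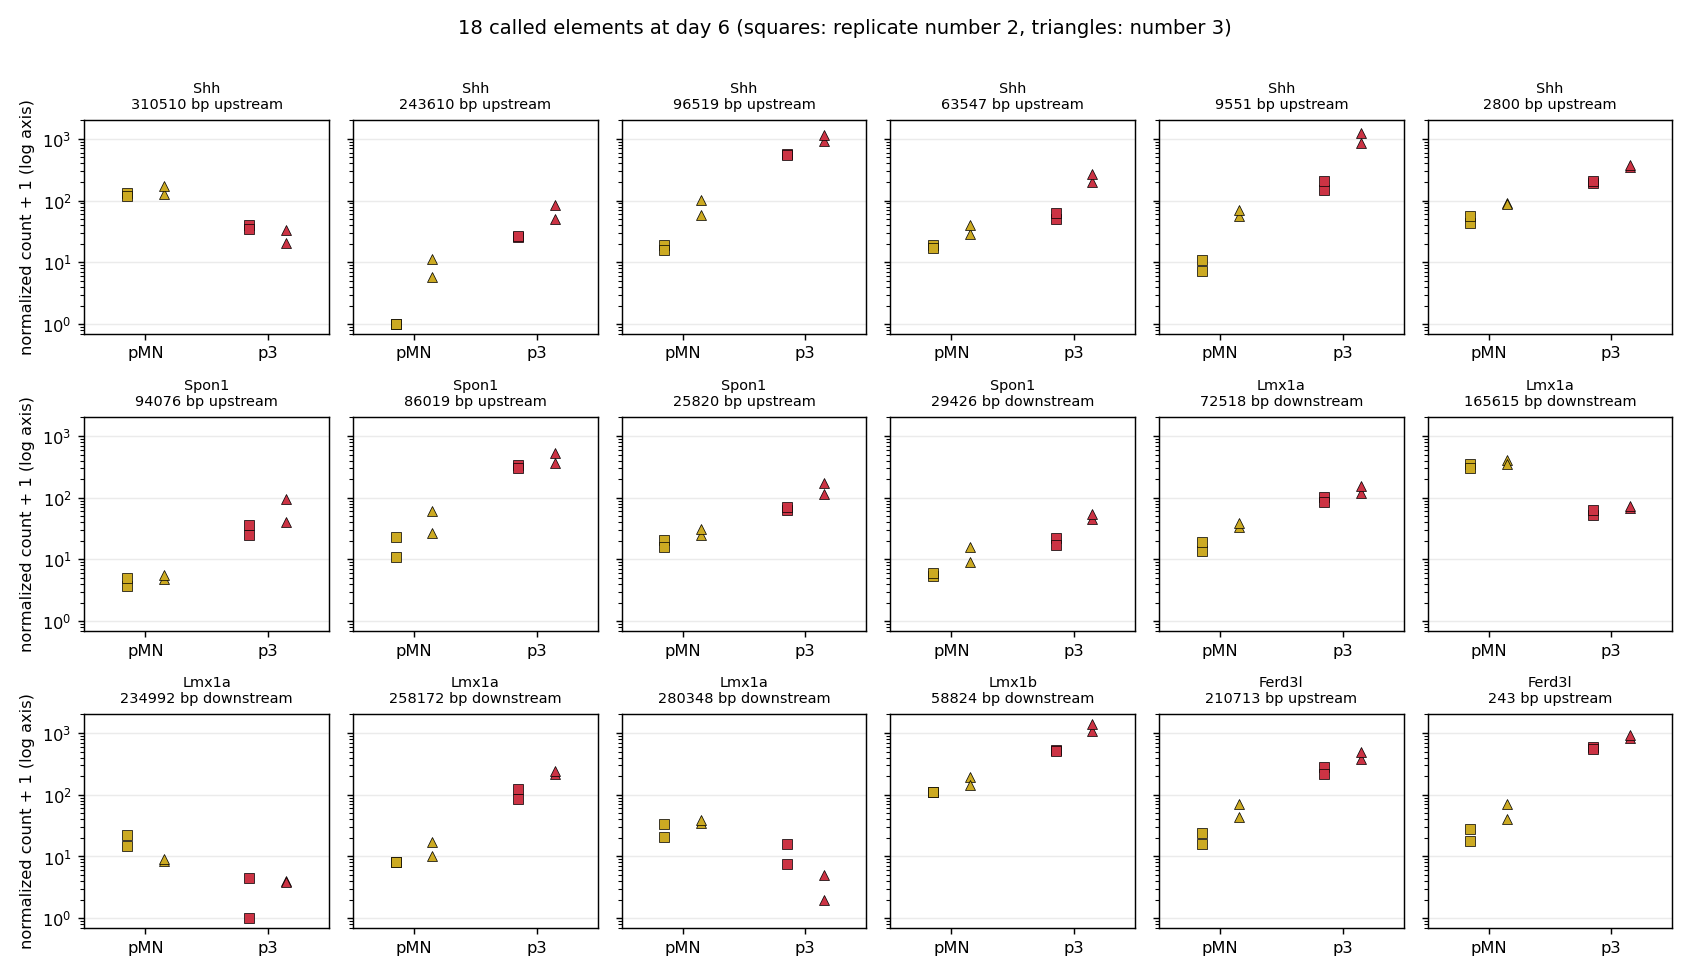
Normalized count plus 1 (log axis) of the 18 elements called between p3 and pMN at day 6 in the p3 and pMN samples, squares for replicate number 2 and triangles for number 3, at 2 SAG concentrations each. At the Shh element 9551 bp upstream the p3 counts were 148 and 203 for number 2 and 862 and 1229 for number 3, and the pMN counts 6.28 and 10.0 and then 56.3 and 70.1.

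The nearest-TSS rule left some elements within these genes to their neighbours, and these were looked at after the annotation had been seen. The element in intron 2 of Shh (chr5:28457892-28460386), assigned to 9530036O11Rik, separated p3 from pMN on each day. p3 and pMN means were 606 ± 139 and 255 ± 54.8 at day 4 (log2 ratio 1.25, limma adjusted p = 2.39e-05), 1121 ± 326 and 190 ± 12.4 at day 5 (2.56, 6.99e-09) and 2333 ± 1024 and 252 ± 72.5 at day 6 (3.21, 8.29e-06), the last 2 past 4-fold. At day 6 p2 was at 235 to 725 and p0-1 at 267 to 329, below the lowest p3 sample, 1383. Intron 2 of Shh is known to hold a floor plate enhancer, but the overlap with it was not tested. The element in intron 1 of Shh (chr5:28463217-28467189) reached close to the annotated start of Shh at 28467256. It was at 602 ± 150 in p3 and 272 ± 15.0 in pMN at day 6 (log2 ratio 1.15, limma adjusted p = 0.000198, below 4-fold). It was open in NMPs too, at 540 to 611, and in p0-1 at day 6, at 311 to 365. The Lmx1b promoter element, assigned to C130021I20Rik, was at 757 ± 172 in p3 and 535 ± 32.6 in pMN (log2 ratio 0.50, limma adjusted p = 0.02). The 5 elements within introns of Spon1 that were assigned to Rras2 were called between p3 and pMN on no day, with log2 ratios at day 6 of -0.17 to 1.52.

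For the assigned element nearest the TSS of each gene, the 3 most similar elements of other genes were found, as a description. Likeness was Pearson's r of VST values across the 25 condition means. The Ferd3l promoter element was most like elements assigned to Siah1a (r = 0.990), Slc38a1 (0.987) and Rab33b (0.985). The Shh element 2800 bp upstream was most like an element 64068 bp downstream of the TSS of Slit1, a repulsive axon guidance ligand (0.968), followed by Enoph1 (0.961) and Mir8101 (0.958). The Shh element 9551 bp upstream, the one with the widest p3 to pMN ratio at Shh, was most like elements at Cyp2c23 (0.971), at Prom1, which encodes prominin 1, a membrane protein of progenitors (0.969), and at Shisa9 (0.969). The Lmx1a promoter element was closest to Atg7 (0.958), Ovol1 (0.957) and Nrxn2 (0.951), the Lmx1b element to Tacr1 (0.950), Sp2 (0.944) and Mcl1 (0.934), and the Spon1 element to 4933402J07Rik (0.882), Pstpip1 (0.876) and Zfp644 (0.875). These last 3 elements varied little themselves, with SDs of condition means of 0.285, 0.410 and 0.237. The Lmx1a and Lmx1b ones had their highest condition mean in NMPs, 734 and 868. How far single conditions carried these r values was not tested.

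Elements at other genes of the floor plate and p3 were counted in the same comparisons. Of 179 elements at 10 of the 11 genes listed, 12 were called between p3 and pMN at day 4 (6 higher, 6 lower), 31 at day 5 (21 higher, 10 lower) and 40 at day 6 (32 higher, 8 lower), where 2.65%, 10.4% and 14.7% of all elements were called, with a median log2 ratio of 0.50 at day 6. The called elements at day 6 belonged to Corin, Foxa1, Foxa2, Nkx2-9, Sim1, Slit1, Slit2, Slit3 and Sulf1, and none to the netrin gene Ntn1. The lists were described and not tested as sets. Of 92 elements at 10 genes that act with Lmx1a and Lmx1b in midbrain floor plate, dopaminergic or serotonergic cells, such as En1, Msx1 and Wnt5a, 5 were called at day 4 (0 higher, 5 lower), 8 at day 5 (3 higher, 5 lower) and 9 at day 6 (5 higher, 4 lower), with a median of -0.01. The day 5 and day 6 counts of this list were below the shares of all elements just given.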

How the data were processed

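The 67 samples are CaTS-ATAC libraries. Alignment to mm10, peak calling with MACS and counting over merged consensus elements were done by the authors in the nf-core/atacseq 1.2.0 pipeline, and they deposited the DESeq2 variance-stabilized value of each element and sample, on the log2 scale, with the peak annotation. The transformation was inverted here with each sample's size factor, which returned whole reads for 100% of the values below 1000 reads (within 1e-06 of a whole number). The annotation assigned 95 elements to the 5 genes, of which 84 had values.

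Differences were tested with limma 3.58.1 in R 4.3.3 (trend) on the deposited log2 values of the samples compared, with Benjamini-Hochberg adjustment over all 111638 elements. A call needed an adjusted p under 0.01 and a ratio of mean normalized counts above 4, a group at 0 being set to 3 reads over the group. The fit was also run on simulated counts. These were drawn independently for each sample, so the run says nothing of effects shared by samples of the same replicate number. Summaries were made in Python 3.11.15 with pandas 2.3.3. The study describes its ATAC-seq replicates as separate differentiations, while the labels do not say which samples share one, so samples of a group may not all be independent. Replicate numbers came from sample titles; for 15 samples the description carries another number, including all p3 and pMN samples of day 6.

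The elements described singly were, for each gene, the one nearest the TSS, the one with the highest mean count, and those called between p3 and pMN at day 6 (at most 6 by ratio), and at Shh the one of widest ratio for likeness. The elements searched for likeness had an SD of condition means of at least 0.5. The Spon1 element 77593 bp upstream, the Shh element 308662 bp upstream, the elements called between pMN and p0-1 and those assigned to neighbouring genes were chosen after their values were seen. The genes and lists were chosen with earlier results of these data known. 1 listed gene is not reported here, and the marker sums and list counts leave it out. Alternatives were a fold of 2, a mean count above 100, median centering, a replicate block, voom on the recovered reads, 100 nM samples alone, and leaving out replicates; leaving out single libraries was chosen after seeing the data.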

Additional observations from a re-analysis of the deposited data

Results flagged for a closer look

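Among the elements described singly, 11 of 162 groups of 4 to 10 samples (6.79%) held a sample far from the others by Dixon's criterion, which chance meets in about 1 in 20 groups. At Shh these were a pMN sample of day 5 (100 nM, number 2) at 443 normalized counts at the element 101170 bp upstream and a pMN sample of day 4 (500 nM, number 2) at 20.7 at the element 9551 bp upstream. At Spon1 they were a pMN sample of day 4 (500 nM, number 3) at 5.11 at 94076 bp, a pMN sample of day 5 (500 nM, number 3) at 23.4 at 86019 bp, and at 77593 bp a p3 sample of day 4 (100 nM, number 2) at 68.3 and a pMN sample of day 5 (100 nM, number 2) at 136. At Lmx1a the p3 sample of day 4 from 500 nM numbered 1 was low at the promoter, at 304, and at 357038 bp, at 9.11. The other Lmx1a values were 6.16 at 357038 bp (p3, day 5, 100 nM, number 3), and at 234992 bp 6.81 (p3, day 5, 500 nM, number 2) and 0 (p3, day 6, 100 nM, number 2).

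For 9 elements the p3 to pMN ratio itself differed between day 6 and day 4 by the interaction test in limma. The log2 ratios of ratios were 3.55 (Spon1, 86019 bp), 3.41 (Shh, 9551 bp), 3.02 and 2.50 (Ferd3l, 210713 and 243 bp), 2.71 and 2.40 (Lmx1a, 258172 and 78891 bp), 2.70 and 2.35 (Spon1, 94076 and 25820 bp) and -2.70 (Lmx1a, 165615 bp).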

How the results depend on the processing

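Where they were run, median centering (every comparison), voom (all but the interaction) and the 100 nM samples alone (p3 against pMN) changed no count of called members by more than 1.5 times, though the 1 member called at day 4 from 100 nM was a different one and lower in p3. With a fold above 2, the calls between p3 and pMN were 14, 32 and 40 at days 4, 5 and 6, those between p3 and p2 37, p3 and p0-1 35, and pMN and p0-1 12, and those from day 4 to day 6 36 in p3 and 37 in pMN. Among elements with a mean above 100 in the samples compared, the same counts were 0, 3, 8, 9, 10, 1, 9 and 4, with 8 from NMP to p3 and 10 from NMP to pMN. Leaving out replicates or single libraries gave 1 to 3 calls at day 4, and 2 without the replicates numbered 2 or 3; day 5 gave 10 to 12. At day 6 it gave 13 (without the 100 nM p3 library numbered 3) to 22 (without the 500 nM p3 library numbered 2). The ranges were 17 to 23 against p2, 14 to 21 against p0-1, 18 to 23 for p3 over time and 8 to 12 for the interaction. The cause of these shifts was not tested.

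Samples of the same replicate number deviated together, with a median correlation of 0.380, 0.315 and 0.400 at days 4, 5 and 6, but not in every pair (70 of 77, 71 of 71 and 55 of 59 above 0.1), so the numbers were not taken to pair samples. Pairs of different number had a median of -0.180, -0.178 and -0.324 on these days, and 61 of 64 samples correlated best with their own number. If a number stands for a differentiation, the p3 and pMN groups of day 6 hold fewer independent differentiations than samples. The SDs, standard errors and p values given treat the samples as independent. A replicate block left 1, 10 and 18 calls between p3 and pMN, lost none, and gave 10 for the interaction.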
